A study of Mus musculus with 6 samples.

Results

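Mndal and its relatives in the Ifi200 cluster were followed across the 6 arrays. The members were chosen by name, as Mndal, Ifi203, Ifi203-ps, Ifi204, Ifi205 and Aim2, with every probe set annotated to exactly 1 of these symbols. That rule found 5 of the 6 genes among the 22180 genes with such a probe set, each with 1 probe set. Ifi203 had none, since the probe set that reads it carries other symbols too. These genes were singled out because of how they read in the comparison described here, so their own differences are given as a description and without a test.

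The samples were cerebella of mice at postnatal day 7. The wild-type group (Math1Cre, n = 3) carried the Math1-driven Cre transgene with wild-type Crebbp. The knockout group (Math1Cre::CrebbpFl/Fl, n = 3) carried the same transgene with both Crebbp alleles floxed. Math1 (Atoh1) drives Cre in granule neuron precursors, so glia, blood vessels, meninges and most immune cells of the tissue fall outside the deletion. The labels give neither the strain of the mice nor whether each array held its own animal, so the spread behind every p-value is that of these arrays and may be partly technical. Fewer cells of a type and less RNA per cell cannot be told apart in such whole tissue.

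The Ifi200 genes, also called PYHIN genes, lie next to each other on mouse chromosome 1. Most of their proteins pair a pyrin domain, which binds other pyrin domains, with a HIN domain, which binds DNA. They are known as genes that interferons switch on in immune cells, and the cluster is known for differences in gene content and expression between laboratory mouse strains. AIM2 senses double-stranded DNA in the cytosol and assembles an inflammasome through the adaptor PYCARD. The p204 protein of Ifi204 acts in DNA sensing upstream of STING. Mndal and Ifi203 encode nuclear family members, and Ifi203-ps is annotated as a pseudogene.

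The sequences before the annotated start sites show how alike some of these genes are there. They do not show what a probe set can tell apart, since probe and transcript sequences were not compared. The 250 bases before the start of Mndal (chr1:173880188-173880437), Ifi203 (chr1:173942493-173942742) and Ifi205 (chr1:174031756-174032005) follow 5′ to 3′, all from the minus strand of GRCm38.p6 (RefSeq). Both Mndal and Ifi203 have a further start in the table, not shown. Capitals mark GAAA followed, after any 2 bases, by GAAA on either strand, the core letters of the interferon-stimulated response element.
Mndal: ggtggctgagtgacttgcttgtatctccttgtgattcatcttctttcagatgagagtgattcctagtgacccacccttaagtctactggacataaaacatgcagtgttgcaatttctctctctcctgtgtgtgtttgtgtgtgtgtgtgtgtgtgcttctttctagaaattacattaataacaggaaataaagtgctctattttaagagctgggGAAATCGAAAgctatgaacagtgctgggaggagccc
Ifi203: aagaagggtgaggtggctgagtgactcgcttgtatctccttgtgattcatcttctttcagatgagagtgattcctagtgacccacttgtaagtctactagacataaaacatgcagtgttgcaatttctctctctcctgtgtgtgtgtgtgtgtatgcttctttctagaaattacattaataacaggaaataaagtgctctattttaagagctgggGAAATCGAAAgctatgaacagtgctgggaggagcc
Ifi205: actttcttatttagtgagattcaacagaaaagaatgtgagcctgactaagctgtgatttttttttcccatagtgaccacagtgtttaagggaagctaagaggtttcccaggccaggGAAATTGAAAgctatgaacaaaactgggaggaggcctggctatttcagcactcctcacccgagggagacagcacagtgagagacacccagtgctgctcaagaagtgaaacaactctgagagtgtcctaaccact
Over the 300-base windows that run from 250 bases before to 50 bases after each start, Mndal and Ifi203 shared 282 of 289 aligned bases (97.6%). The corresponding shares against Mndal were 144 of 202 bases for Ifi205 and 147 of 269 for Aim2 (54.6%). For the further start of Ifi203 the share was 154 of 265 (58.1%). Gap columns numbered 196 for Ifi205, 62 for Aim2 and 22 for the Ifi203 start shown. Identical bases made up 48% of the 300 for Ifi205 and 49% for Aim2. The matching letters lay 36 bases before the start in Mndal, 35 in Ifi203 and 134 in Ifi205, and Ifi205 held another match after its start. Other genes of the cluster held the same core in similar surroundings, shown here with 12 bases on each side.
Ifi207: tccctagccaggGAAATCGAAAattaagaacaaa
Ifi208: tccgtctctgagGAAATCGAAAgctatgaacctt
Ifi211: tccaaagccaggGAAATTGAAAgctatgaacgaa
Ifi214: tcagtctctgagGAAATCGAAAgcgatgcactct
On either strand, this core occurred in 3.44% of 32851 windows of this length. It occurred in 9 of the 12 cluster genes that had a window, a gene counting if any of its windows held a match. Genes with several starts have several windows, so counts of genes and shares of windows are unlike units. Aim2, Ifi209 and Ifi202b held no match in theirs. Among interferon-stimulated genes, 27 of 55 with a window (49.1%) held it. TTCNNNGAA, the core of the gamma-interferon activation site, occurred in 8.30% of all windows and in that of Ifi202b in the cluster. TGACGTCA, the full cAMP response element, occurred in 1.79% of windows and in 0 of the 12 genes. Each motif was searched on its own, so 1 stretch may hold letters of both interferon motifs. A match describes these letters in the reference strain only.

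Mndal, which encodes the myeloid nuclear differentiation antigen-like protein, was far lower on the knockout arrays. Its log2 value was 7.49, 7.46 and 7.61 on wild-type arrays 1 to 3 and 5.53, 6.13 and 5.25 on knockout arrays 1 to 3. Every knockout array thus lay more than 1 log2 unit below every wild-type array. The wild-type mean was 7.52 ± 0.08 and the knockout mean 5.64 ± 0.45 (SD over 3 arrays), a difference of -1.89 (SE 0.19), or 3.69-fold. It was the second most negative difference of all 22180 genes. The knockout arrays spread more widely than the wild-type arrays, with array 2 highest. The knockout mean lay under 6.02, the 25th percentile of all deposited values, and no detection call comes with the values, so how far the gene truly dropped is uncertain.

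Ifi203-ps was lower in knockout too, by a smaller amount. Its log2 value was 7.78, 7.89 and 8.12 in wild type and 7.29, 7.13 and 7.22 in knockout. The groups did not overlap, and here the knockout arrays were the tighter group. The means were 7.93 ± 0.17 and 7.21 ± 0.08, a difference of -0.72 (SE 0.10), or 1.64-fold.

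A pair of probe sets shared between genes of the cluster read the same way. Probe set 17230087 carries 3 symbols, those of Ifi203, Ifi203-ps and a further locus, and is named after none of them. Its log2 value was 7.40, 7.93 and 7.61 in wild type and 5.87, 5.81 and 5.56 in knockout. The difference of -1.90, or 3.73-fold, was close in size to that of Mndal, whose own probe set it is not. Probe set 17230078 carries the symbols of Ifi211 and Ifi204. It read 6.52, 6.85 and 6.61 in wild type and 6.02, 6.01 and 5.79 in knockout, a difference of -0.72. Neither shared probe set overlapped between groups. Probe sets of related genes may detect each other's transcripts, and the probe sequences were not analysed here. Whether the low readings come from separate genes was not tested.

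**Figure D1:**
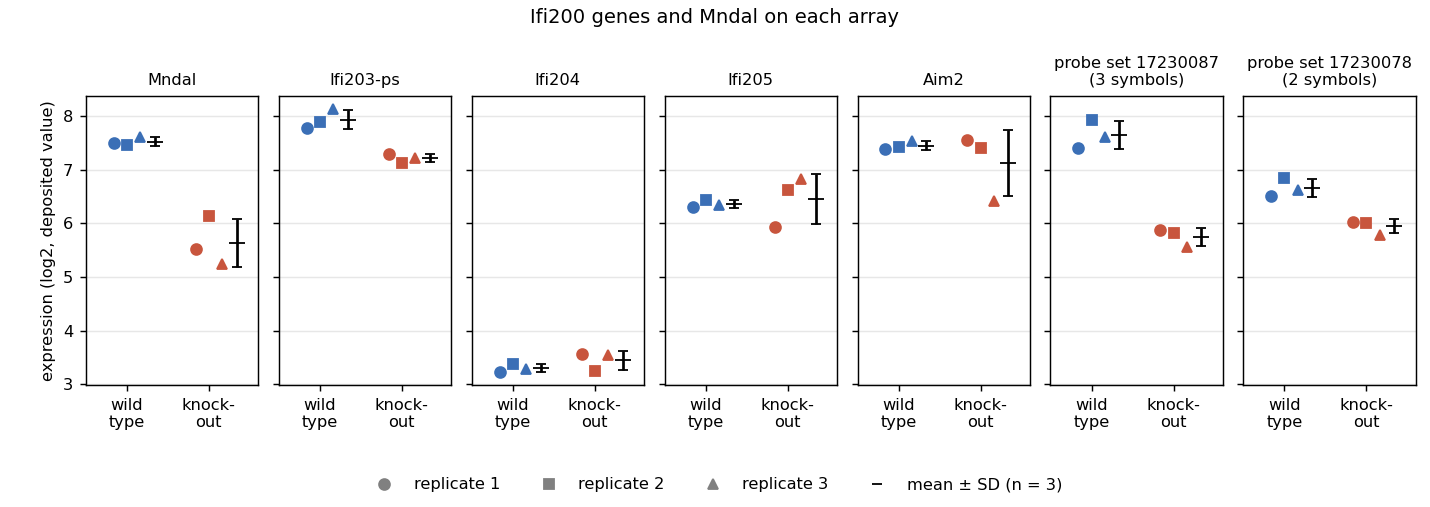
Deposited log2 expression (vertical axis) of the 5 genes with a probe set of their own and of the shared probe sets 17230087 and 17230078, on 3 wild-type and 3 knockout arrays. Symbols mark replicates, and bars give the mean ± SD. Mndal, Ifi203-ps and both shared probe sets have all knockout arrays below all wild-type arrays, while Ifi204, Ifi205 and Aim2 overlap between the groups. Heights should not be compared between probe sets.

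Ifi204, Ifi205 and Aim2 did not share this pattern. Ifi204 was dim on all arrays, at 3.24, 3.38 and 3.28 in wild type and 3.56, 3.25 and 3.54 in knockout, a difference of 0.15 (SE 0.14). The shared probe set that also carries its symbol differed by -0.72, so the pair of probe sets did not read alike. Ifi205 read 6.31, 6.44 and 6.33 in wild type and 5.93, 6.61 and 6.82 in knockout, a difference of 0.09 (SE 0.19). With 1 array left out, it ran from -0.09 without knockout replicate 3 to 0.36 without knockout replicate 1. The wild-type arrays lay close together (SD 0.07) while the knockout arrays ran from below them to above them (SD 0.47). Aim2 read 7.38, 7.42 and 7.54 in wild type and 7.55, 7.40 and 6.41 in knockout, a difference of -0.33 (SE 0.24). Only knockout array 3 was low. Without that array the difference in Aim2 was 0.03.

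Of the 5 genes, 2 had all knockout arrays below all wild-type arrays, and over all genes this held for 13.1%. Since the choice of genes used this comparison, nothing is read from that count. The 3 genes with a wide spread among knockout arrays did not share an order. Array 2 was highest for Mndal, array 3 for Ifi205 and array 1 for Aim2. The lowest was array 3 for both Mndal and Aim2, and array 1 for Ifi205.

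The other genes of the cluster with a probe set of their own were Ifi202b, Ifi207, Ifi208, Ifi209, Ifi213 and Ifi214. By limma, 0 of these 6 rose and 0 fell (adjusted p under 0.05 over all genes), against 2.72% and 3.94% of all genes. At an unadjusted p under 0.05, 1 was higher and 1 lower, where all genes had 9.57% higher and 10.9% lower. Ifi209 had the most negative difference, at -0.66 (SE 0.23, limma adjusted p = 0.127). It read 4.99, 4.30 and 4.97 in wild type and 3.75, 4.50 and 4.03 in knockout, so the groups overlapped. Ifi207 was higher on every knockout array, by 0.33 (limma adjusted p = 0.175). Ifi213, Ifi214, Ifi202b and Ifi208 differed by -0.25, 0.09, -0.05 and -0.06. All 6 had wild-type means under the 25th percentile of all values, where a loss of expression would leave little room to be seen.

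Gene order places these readings in their neighbourhood. The order runs Aim2, Ifi214, Ifi213, Ifi209, Ifi208, Ifi207, Ifi204, Ifi203-ps, Mndal, Ifi211, Ifi203, Ifi202b and Ifi205, leaving out genes with no named probe set other than Ifi211 and Ifi203. The low readings on probe sets of 1 symbol thus belonged to the adjacent genes Ifi203-ps and Mndal. The shared probe sets carry the symbols of the next genes, Ifi211 and Ifi203, but also those of Ifi204, Ifi203-ps and a further locus. No reading here is thus specific to Ifi211 or Ifi203. Just outside the block, on the side of Aim2, 2 more genes fell. Cadm3, an adhesion molecule of neurons, read 11.77, 11.81 and 11.73 in wild type and 11.27, 11.35 and 11.21 in knockout (difference -0.49, SE 0.05, limma adjusted p = 0.000559). Ackr1, the atypical chemokine receptor also known as the Duffy antigen, read 9.73, 10.10 and 9.68 in wild type and 8.97, 9.13 and 9.09 in knockout (difference -0.78, SE 0.10, limma adjusted p = 0.00228). Both genes have all knockout arrays below all wild-type arrays, and since they overlap in the annotation, their signals may not be separate.

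Counted together, the 25 named genes on each side and the non-members inside the block gave 48 measured neighbours, of which 0 rose and 3 fell by limma, against 2.72% and 3.94% of all genes. At an unadjusted p under 0.05, 1 was higher and 6 lower, against 9.57% and 10.9%, so the falls lie near the shares over all genes. The third was Rgs7, a regulator of G protein signalling in neurons, which fell by 0.30 (SE 0.06, limma adjusted p = 0.0200) and lies near the far edge of the set. The median difference of the 48 genes was -0.06, where all genes had -0.00275. Many of them are olfactory receptor genes, and 27 had wild-type means under the 25th percentile of all values. Without the 3 arrays that were rich in choroid plexus RNA (Ttr above 10), the differences of Cadm3 and Rgs7 were -0.42 and -0.24. That leaves 1 knockout array, so calls are not compared. Leaving out wild-type replicate 2 (limma adjusted p = 0.0685) or knockout replicate 1 (0.0667) ended the call of Rgs7.

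**Figure D2:**
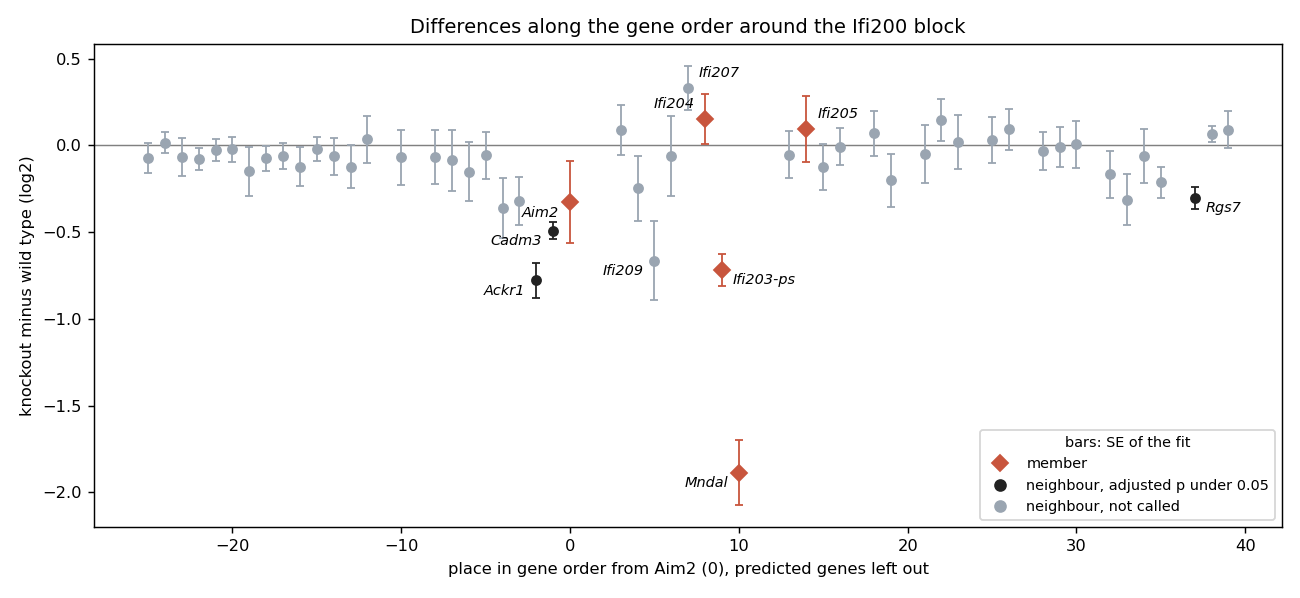
Knockout minus wild-type difference (log2, vertical axis) of each gene with a probe set of its own, placed by gene order from Aim2 at 0 (horizontal axis, predicted genes left out). Diamonds mark the members, dark points the neighbours with a limma adjusted p under 0.05, and bars the SE of the fit. Ifi204 and Ifi202b, the plotted genes on either side of Ifi203-ps and Mndal, lie at 0.15 and -0.05. Both had wild-type means under the 25th percentile of all values, where a fall could hardly be seen. Ifi211 and Ifi203 have no probe set of their own and are not plotted. Ackr1 and Cadm3 lie next to Aim2.

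The floxed allele lies elsewhere, on chromosome 16. Crebbp itself read 11.96, 11.995 and 11.90 in wild type and 11.46, 11.42 and 11.32 in knockout, so each array stood on the side of its label (difference -0.56, SE 0.05, limma adjusted p = 0.000354). Whether its probe set covers the deleted part was not analysed here. Of 35 measured genes next to Crebbp, 0 rose and 0 fell by limma, against 2.72% and 3.94% of all genes. Among them 4 were higher and 1 lower at an unadjusted p under 0.05, against 9.57% and 10.9%. Their median difference was 0.02.

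Genes known to differ between laboratory mouse strains, in copy number, coding sequence or expression, changed in both directions. By limma, 2 of 17 measured genes rose and 2 fell, against 2.72% and 3.94% of all genes, and the median was -0.05. With an unadjusted p under 0.05, 2 were higher and 6 lower, against 9.57% and 10.9%. All knockout arrays lay above all wild-type arrays for 2 (11.8%) and below them for 5 (29.4%). Over all genes these shares were 11.8% and 13.1%. The list was written with earlier results of these data known, and Mid1 and Erdr1 were known to have fallen. Wdfy1, an endosomal protein of innate immune signalling, read 9.04, 9.07 and 8.94 in wild type and 9.43, 9.49 and 9.40 in knockout (difference 0.42, SE 0.06, limma adjusted p = 0.00242). Glo1, a glyoxalase whose gene is duplicated in some strains, rose by 0.28 (SE 0.06, limma adjusted p = 0.0233).

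Mid1, which spans the boundary of the pseudoautosomal region, read 10.69, 11.86 and 11.20 in wild type and 10.35, 9.24 and 9.66 in knockout (difference -1.50, SE 0.30, limma adjusted p = 0.0170). Erdr1 read 13.23, 13.44 and 13.13 in wild type and 12.23, 11.64 and 12.63 in knockout (difference -1.10, SE 0.20, limma adjusted p = 0.00988). Both belong to the sex chromosomes, and Xist, which is transcribed in females, was at 12.27, 12.32 and 5.74 in wild type and 5.79, 6.45 and 12.30 in knockout. The part of sex in either gene was not tested. Both calls ended when the prior variance was fitted without a trend (limma adjusted p = 0.0619 for Erdr1 and 0.0799 for Mid1) or robustly (0.1200 and 0.1697). Mid1 also did not pass once wild-type replicate 2 was removed (limma adjusted p = 0.0554). Glo1 did not pass once replicate 1 or 2 of either group was removed (limma adjusted p from 0.0599 to 0.112). The labels name no strain, so a difference in strain background between the groups, if there was one, cannot be told apart from the loss of Crebbp.

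Interferon-stimulated genes as a list did not fall with Mndal. Of 65 measured genes, 2 rose and 0 fell by limma, against 2.72% and 3.94% of all genes. At an unadjusted p under 0.05, 9 were higher and 0 lower, against 9.57% and 10.9%. Eif2ak2, the antiviral kinase PKR, read 7.00, 7.18 and 7.20 in wild type and 7.72, 7.87 and 7.76 in knockout (difference 0.66, SE 0.08, limma adjusted p = 0.00197). B2m, the light chain of major histocompatibility complex class I, read 11.31, 11.60 and 11.34 in wild type and 11.90, 11.91 and 11.99 in knockout (difference 0.52, SE 0.07, limma adjusted p = 0.00318). The median of the list was 0.06, and its most negative member differed by -0.34.

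All knockout arrays lay above all wild-type arrays for 11 of the 65 (16.9%), against 11.8% of all genes, and below them for 1, against 13.1%. Irgm2, an immunity-related GTPase, and Ifi27, a mitochondrial protein, differed by 0.33 and 0.52 without passing (limma adjusted p = 0.0717 and 0.0777). Without knockout replicate 2, 4 genes of the list rose, among them Ifi27 (0.70, limma adjusted p = 0.0134). Without the arrays rich in choroid plexus RNA, which leaves 1 knockout array, B2m differed by 0.44. Of 657 tested genes with the interferon-stimulated response element core in their window, 22 rose (3.35%) and 23 fell (3.50%). Over all genes 2.72% rose and 3.94% fell. The median of the 657 genes was 0.000151.

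Among the interferon ligands, 1 of 19 rose and 0 fell by limma, against 2.72% and 3.94% of all genes. Of these ligands 2 were higher and 0 lower at an unadjusted p under 0.05, against 9.57% and 10.9%. Ifna4, a type I interferon, read 7.80, 7.66 and 7.47 in wild type and 8.50, 8.47 and 8.76 in knockout (difference 0.93, SE 0.10, limma adjusted p = 0.000897). Ifna9, Ifna14 and Ifnb1 differed by 0.39, -0.21 and 0.13 and did not pass (limma adjusted p = 0.112, 0.337 and 0.579). The interferon alpha genes are close copies of each other, so the probe set of Ifna4 may read its relatives too. The median of the list was -0.00406.

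Of 20 interferon receptor and signalling genes, 0 rose and 1 fell by limma, against 2.72% and 3.94% of all genes. Counted at an unadjusted p under 0.05, 5 were higher and 2 lower, against 9.57% and 10.9%. Socs3, a feedback inhibitor of cytokine receptors, fell by 0.44 (SE 0.08, limma adjusted p = 0.0132), a call that ended when replicate 1 of either group was removed (0.0700 for wild type, 0.0511 for knockout) or the prior variance had no trend (0.0533). Il10rb, a chain of the type III interferon receptor, differed by 0.25 (limma adjusted p = 0.0573), and Irf9, a transcription factor of interferon signalling, by 0.26 (0.0723). Ifnlr1, the other chain of that receptor, differed by -0.29 (0.1003). With dim genes left out Il10rb rose (limma adjusted p = 0.0492), and without knockout replicate 2 Irf9 rose by 0.32 (0.0490).

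Genes of cytosolic DNA sensing and of inflammasomes, not only that of AIM2, gave 0 rises and 0 falls by limma among 22 measured genes. The shares over all genes were 2.72% and 3.94%. By an unadjusted p under 0.05, 4 were higher and 3 lower, against 9.57% and 10.9%. The median of this list was 0.05. Naip5 and Naip2, which sense bacterial proteins for the NLRC4 inflammasome, differed by 0.65 and 0.52 (limma adjusted p = 0.0851 and 0.0869). Tbk1, the kinase downstream of STING, differed by -0.16 (limma adjusted p = 0.0877), and Casp8 by 0.25 (0.105). Without knockout replicate 1 Naip5 rose by 0.84 (limma adjusted p = 0.0376).

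**Figure D3:**
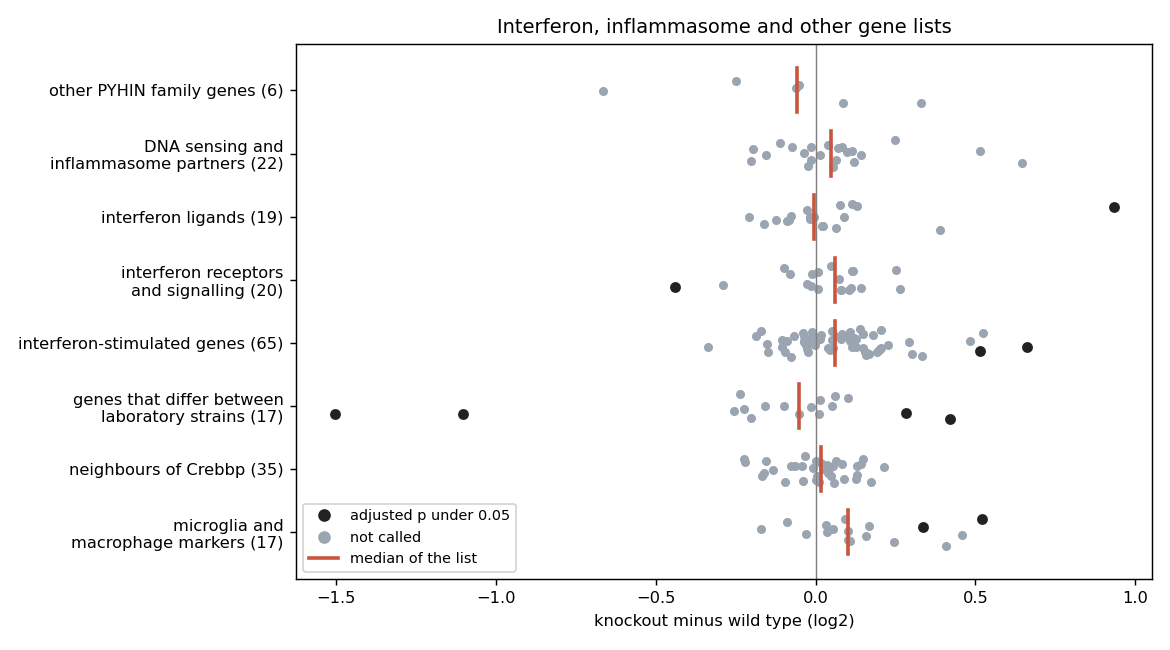
Knockout minus wild-type difference (log2, horizontal axis) of each measured gene in 8 lists, with the number measured in brackets. Dark points passed a limma adjusted p under 0.05, and the vertical bar is the median of the list. The interferon-stimulated genes gather around a median of 0.06, with Eif2ak2 and B2m as the dark points on the right, and 0 of the 6 other cluster genes passed.

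Cell types in which the Ifi200 genes are usually found were checked with marker genes. Of 17 measured microglia and macrophage markers, 2 rose and 0 fell by limma, against 2.72% and 3.94% of all genes. Among these markers 5 were higher and 0 lower at an unadjusted p under 0.05, against 9.57% and 10.9%. Their median was 0.10. The sum of their linear signals ran from 6788 to 7434 on the wild-type arrays and from 7786 to 8609 on the knockout arrays. This sum was thus higher on every knockout array, though 15 of the 17 markers were not called. A linear sum weighs bright markers most, and the differences of single markers ran from -0.17 to 0.52. The part of these cells in the result was not tested. The log2 values have no true zero, and the wild-type mean of 0 markers lay under the 25th percentile of all values. Fcer1g, the common gamma chain of Fc receptors, rose by 0.52 (SE 0.10, limma adjusted p = 0.0160) and C1qb, a complement component, by 0.34 (0.0412), while Cd68 differed by 0.41 (0.0671).

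Fcer1g did not pass with wild-type replicate 1 or 2 removed (limma adjusted p = 0.0824 and 0.0671), and C1qb did not pass with any single array removed except knockout replicate 3. Among 15 markers of other leukocytes 0 rose and 0 fell by limma (1 higher and 2 lower at an unadjusted p under 0.05), with summed linear signals of 1159 to 1238 in wild type and 1195 to 1237 in knockout. Markers of the tissue itself moved too. For every marker count here, the shares over all genes were 2.72% that rose and 3.94% that fell. The unadjusted shares over all genes (p under 0.05) were 9.57% higher and 10.9% lower. Of 9 granule neuron lineage markers, 1 rose and 6 fell by limma, with Zic1 at 13.12 ± 0.04 in wild type and 12.88 ± 0.02 in knockout, and Atoh1 the gene that rose. Of 7 oligodendrocyte markers 1 fell, and all 7 were lower at an unadjusted p under 0.05, with summed linear signals of 6378 to 6843 in wild type and 4182 to 6214 in knockout. Of 9 markers of meninges and fibroblasts 0 rose and 0 fell by limma, and 6 were higher at an unadjusted p under 0.05, with sums of 5314 to 5692 and 6010 to 8586. The part of these cell types in the readings of Mndal and Ifi203-ps was not tested. Choroid plexus RNA differed between arrays. Ttr read 12.30 on wild-type array 1, 13.77 on knockout array 1 and 13.92 on knockout array 3, and 8.08 to 9.19 on the others. Without these 3 arrays, which leaves 1 knockout array, Mndal differed by -1.40 and Ifi203-ps by -0.87.

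The genes whose profile over the 6 arrays lay nearest to that of Mndal were Cxcl14, Dmrta1, A930019D19Rik, Ahcy and Zfp457. Numbered predicted genes and small RNA genes were left out of this choice. Likeness was the root-mean-square distance between log2 values after subtracting each gene's mean, over 6 arrays, and a gene chosen this way must be lower in knockout. The same choice favours a like order of the knockout arrays, so nothing is read from that order. The distance was 0.37 for Cxcl14, a chemokine, and 0.39 for Dmrta1, a transcription factor of the doublesex family. It was 0.39 for the transcript A930019D19Rik, 0.43 for Ahcy, the hydrolase of S-adenosylhomocysteine, and 0.44 for the zinc finger gene Zfp457. Cxcl14, Dmrta1, Ahcy and Zfp457 shared with Mndal a highest knockout reading on array 2, and A930019D19Rik had its lowest there. Their differences ran from -1.73 for A930019D19Rik to -1.13 for Ahcy, with -1.31 (SE 0.08) for Cxcl14, -1.16 for Dmrta1 and -1.23 for Zfp457. Ifi203-ps lay at a distance of 0.66, ranking 71 among all genes with none left out, and Aim2, Ifi205 and Ifi204 lay at 0.82, 1.06 and 1.08.

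**Figure D4:**
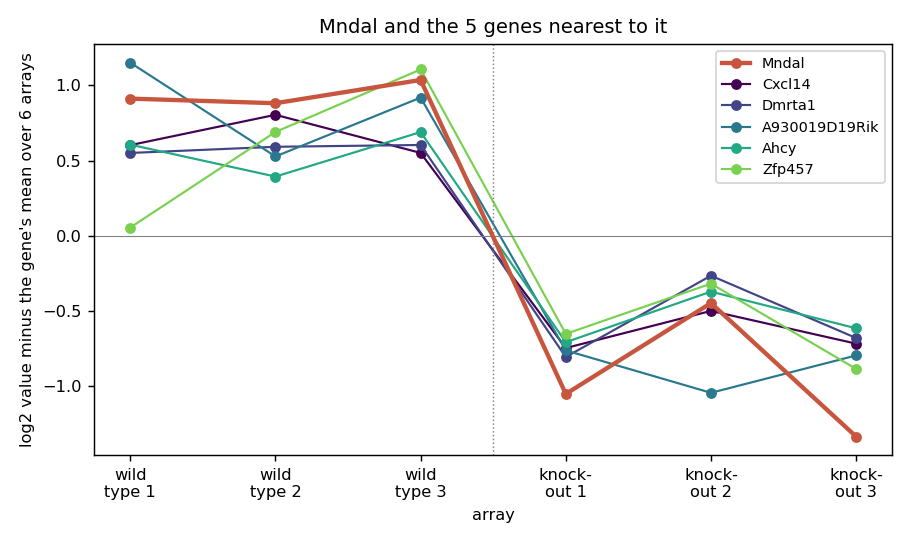
Log2 value minus the gene's mean over the 6 arrays (vertical axis) for Mndal and the 5 genes nearest to it, by array (horizontal axis). Each line is 1 gene, and the lines join arrays only to guide the eye. All 6 genes lie above 0 on the wild-type arrays and below 0 on the knockout arrays, and Mndal lies lowest on knockout array 3.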

How the data were processed

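Total RNA from cerebellum, 6 samples in all, was labelled with the GeneChip WT PLUS kit and read on Affymetrix arrays, per the labels' protocols. The deposited values are log2 expression values, 1 per probe set and array, made by the authors with RMA and oligo, which are named without versions in the submitters' processing notes. They were used as deposited, with array medians of 7.25 to 7.29. The labels give no background signal or array build, and the number of arrays limits the precision.

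Of 41345 probe sets, 23521 had 1 gene symbol in GEO's platform annotation, 1814 several and 16010 none. The brightest probe set of each gene was tested, which gave 22180 genes. Gene order came from the RefSeq table of GRCm38.p6 without predicted genes. Knockout was set against wild type by limma 3.58.1 under R 4.3.3 (lmFit, eBayes with a trend, two-sided, Benjamini-Hochberg over all genes, threshold 0.05), a fit checked on simulated data. "Rose" and "fell" mean past that threshold. Over all genes 604 rose and 875 fell. Promoter windows were aligned with Biopython 1.88.

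Genes are named by rule: the members, Crebbp, all other measured cluster genes, up to 4 genes of smallest p per list, neighbours past the threshold, the 3 microglia markers of smallest p and the 5 genes nearest to Mndal. The members and lists were chosen with earlier results of these data known. Ttr, Xist, Zic1, Atoh1 and the olfactory receptor genes are named outside the rule.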

Additional observations from a re-analysis of the deposited data

How the results depend on the processing

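The direction of Mndal and Ifi203-ps was negative under every alternative run for them, which were 2 normalizations, the replicate block, each array left out in turn (Mndal from -2.13 to -1.69, Ifi203-ps from -0.79 to -0.62) and the arrays with Ttr above 10 left out. Without those 3 arrays Mndal differed by -1.40, Ifi203-ps by -0.87 and Ifi204 by -0.082. That fit gave 112 rises and 124 falls over all genes, 1 rise among interferon-stimulated genes and 1 fall among the neighbours of the members. It holds 1 knockout array, assumed to vary like the wild-type arrays. A prior variance without a trend gave 184 rises and 310 falls over all genes. With 1 array left out, rises ran from 199 to 478 and falls from 366 to 800. Leaving out wild-type replicate 1 gave 199 rises and 366 falls. Leaving out wild-type replicate 2 gave 309 and 462, and leaving out knockout replicate 1 gave 317 and 528. Under the same omissions 2 to 4 interferon-stimulated genes rose and 2 to 4 neighbours of the members fell. Among the neighbours of Crebbp 1 gene, Ubald1, fell when dim genes were left out and also with the replicate block. The cause of these shifts was not tested, beyond the smaller number of arrays where arrays were left out.

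Replicate numbers shared between groups are not known to pair the arrays. Deviations from the group means of same-numbered arrays correlated at -0.04, -0.02 and -0.13 across probe sets. With 3 arrays per group, these values cannot decide whether the arrays were paired. With the replicate number as a block, 723 genes rose and 1078 fell, and Mndal differed by -1.89 as before. The mean over all probe sets of a member was not run, since each has 1. Dim values and 3 arrays per group limit what can be seen of Ifi204 and the other dim cluster genes.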
